A study of Mus musculus with 6 samples.

Results

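The subunit genes of oxidative phosphorylation complexes I to V were examined in bulk RNA-seq of whole mouse testes at postnatal day 12. Members were the protein-coding genes whose GENCODE symbols name a subunit (mt-Nd, mt-Co, mt-Cytb and mt-Atp for the mitochondrial genome; Nduf with a, b, c, s or v and a number, Sdha to Sdhd, Uqcr, Cox4 to Cox8 and Atp5 for the nuclear genome). This rule found 98 of the 54232 genes in the count table, of which 13 are encoded by mitochondria and 85 by the nucleus. The nuclear members comprised 37 genes of complex I, 4 of complex II, 8 of complex III, 18 of complex IV and 18 of complex V. The symbol Atp5o was carried by 2 identifiers. Complexes were assigned by symbol alone, and subunits under other symbols, such as *Cyc1* and *Ndufab1*, were not members.

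Testes came from B6D2F1 mice, as 3 libraries of the genotype Dis3l2 WT (the control) and 3 given as Dis3l2 KO (the KO-labelled group). The study describes the second group as *Stra8-Cre*; *Dis3l2* F/- males and the first as their littermates, and *Stra8-Cre* acts in pre-meiotic germ cells, so somatic cells of the KO-labelled testes carry the floxed allele beside the null one. The series text names Dis3 rather than Dis3l2 as the deleted gene. *Dis3l2*, a cytoplasmic 3′ to 5′ exoribonuclease, had 25.8, 23.5 and 23.0 CPM (counts scaled to library size by TMM) in the control libraries against 31.6, 25.4 and 27.5 CPM in the KO-labelled group, a log2 fold change of 0.22 (95% interval -0.01 to 0.46, edgeR adjusted p = 0.133). *Dis3*, the ribonuclease of the RNA exosome, had 133, 148 and 137 CPM in the control and 59.1, 64.3 and 68.1 CPM in the KO-labelled group (log2 fold change -1.13, SE 0.08, edgeR adjusted p = 3.8e-08). The counts thus show no fall of *Dis3l2* and a fall of *Dis3* in the libraries labelled KO. The study itself reported less *Dis3l2* RNA and protein in knockout testes at postnatal day 12, by *in situ* hybridization, RT-qPCR and immunoblot. Counts over a whole gene in whole testes cannot settle which gene was deleted, since somatic cells are included. The deleted gene was not tested here, and each direction below is that of the libraries labelled KO.

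Oxidative phosphorylation passes electrons from NADH through complex I, and from succinate through complex II, to coenzyme Q, complex III, cytochrome c and complex IV, while protons are pumped across the inner mitochondrial membrane. Complex V, the ATP synthase, uses that proton gradient to make ATP. Mitochondrial DNA encodes the hydrophobic core subunits of complexes I, III, IV and V, and the nucleus encodes all of complex II and the remaining subunits. Testis is known for isoforms of several mitochondrial proteins that appear in germ cells during meiosis and after it.

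Libraries held 33325483 to 44956193 counts, and 96 of the 98 members passed the filter on low counts. A gene was called where the Benjamini-Hochberg adjusted p of edgeR's quasi-likelihood test was under 0.05 over all 20327 genes tested. Of these genes 33.1% were called, 16.4% as higher and 16.7% as lower in the KO-labelled libraries, and 45.5% had groups that did not overlap. Marker genes of cell types moved with the groups. All 12 spermatocyte markers were lower, with a summed level of 1441 to 1727 CPM in the control and 402 to 527 CPM in the KO-labelled group. Of 15 Sertoli cell markers 13 were higher, with sums of 6166 to 6540 CPM and of 10044 to 10868 CPM. Spermatogonia markers summed to 1644 to 1849 CPM in the control and 729.7 to 932 CPM in the KO-labelled group, with 3 of 13 higher and 6 lower. *Dazl* weighed most in that sum, with means of 767 CPM in the control and 243 CPM in the KO-labelled group. The 3 higher genes were *Nanos3*, *Etv5* and *Gfra1* (log2 fold changes 0.81, 0.72 and 0.56), so the sum does not stand for every marker. None of the markers in these 3 lists was at 0. In whole testes, fewer cells of a type and less RNA per cell cannot be told apart.

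Members encoded by the mitochondrial and the nuclear genome had medians of opposite sign with the main scaling, and both medians were below 0 when libraries were scaled to markers of 6 somatic cell types of the testis (somatic scaling). Of the 13 mitochondria-encoded members, 4 were called higher and 0 lower, with a median log2 fold change of 0.24 that became -0.22 with somatic scaling. Of the 83 nuclear members tested, 5 were called higher and 17 lower, with a median of -0.08, which became -0.53 under that scaling. Single libraries moved these counts. Mitochondria-encoded members called higher numbered 1 without control library 3 (median 0.15) or KO-labelled library 2, and 7 without control library 2. Nuclear members called higher numbered 2 without control library 1 or 2 and 3 without KO-labelled library 2, and those called lower numbered 10 without control library 2. The marker lists behind the somatic scaling did not all move one way. Peritubular myoid markers had 0 of 6 higher and 2 lower, with sums of 1226 to 1244 CPM in the control and 1028 to 1068 CPM in the KO-labelled group, while the Sertoli, Leydig, endothelial, macrophage and stromal lists had 2 to 13 genes higher and 0 lower. That scaling moved the median of all genes tested from -0.02 to -0.48. Relative to the median of all genes, the mitochondria-encoded median was 0.27 higher with the main scaling and 0.26 higher with somatic scaling, and the nuclear median was -0.05 relative to it under both. A scaling moves all genes of a library together, so these distances could hardly differ between scalings. With 1 library left out they ran from 0.16 to 0.34 (mitochondria-encoded) and from -0.09 to -0.04 (nuclear). With protein-coding genes only they were 0.21 and -0.11. The share of members called was 26.5% of the nuclear and 30.8% of the mitochondria-encoded. It lay near or below the 33.1% of all genes and below the 38.5% of protein-coding genes. In single-cell data of older knockout testes, the study reported respiratory electron transport and oxidative phosphorylation among terms of upregulated genes in spermatogonial subtypes. Those values are of germ cells alone at another age, and they were not compared with the whole-testis values here.

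**Figure D1:**
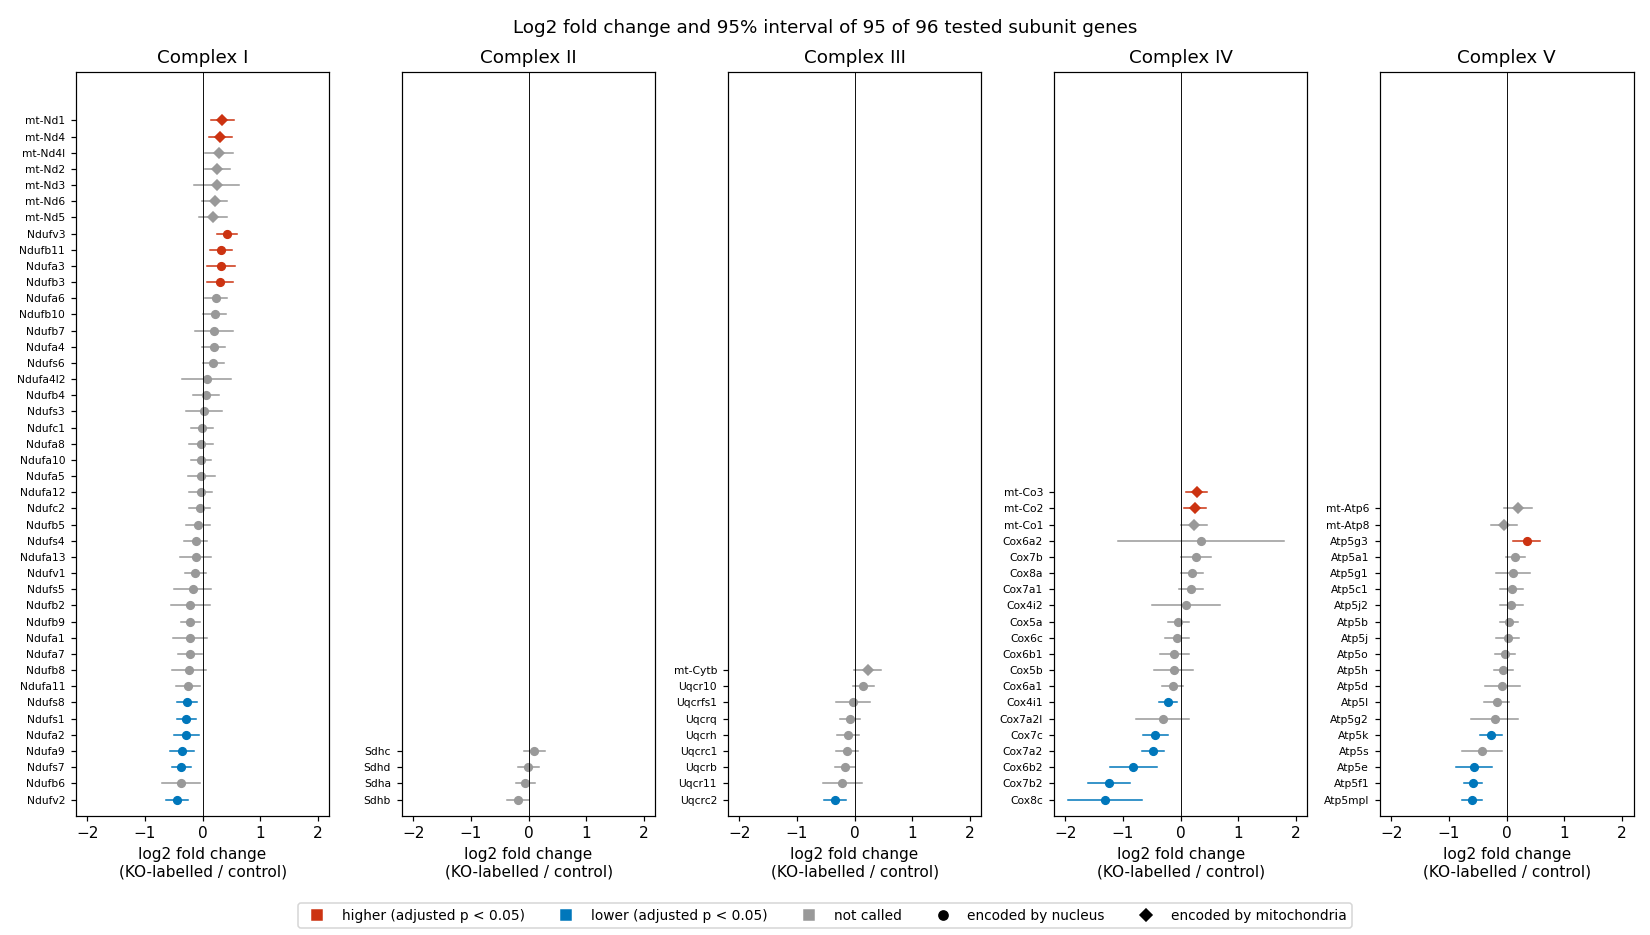
Log2 fold change (KO-labelled over control, x axis) with its 95% interval for 95 of the 96 tested members, by complex; diamonds are mitochondria-encoded and circles nuclear-encoded genes. With the main scaling 12 of 13 diamonds lie right of 0 (to the left with scaling to somatic markers), while the 3 lowest points of complex IV are the testis isoforms Cox8c, Cox7b2 and Cox6b2.

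The sum over each genome showed the contrast within each library. Mitochondria-encoded members summed to 50821, 53538 and 41552 CPM in the control libraries and to 56189, 57679 and 59046 CPM in the KO-labelled group. With the main scaling all 3 KO-labelled sums lay above the control sums, and control library 3 was the lowest of the 6. The order of these sums depends on the scaling. They were not computed with somatic scaling, under which the mitochondria-encoded median was negative. Nuclear members summed to 6887, 6991 and 6766 CPM in the control and to 6897, 6675 and 6391 CPM in the KO-labelled group, with overlapping groups. The ratio of the mitochondrial to the nuclear sum does not depend on how a library is scaled. It was 7.38, 7.66 and 6.14 in the control (7.06 ± 0.807, SD, n = 3) and 8.15, 8.64 and 9.24 in the KO-labelled libraries (8.68 ± 0.547, SD, n = 3), 1.23 times the control mean, and the groups did not overlap. As a sum over chosen genes it was given no test. The 2 mitochondrial ribosomal RNAs, which belong to no complex and are a target of depletion in some library kits, summed to 5235 to 6165 CPM in the control and 6878 to 8768 CPM in the KO-labelled group.

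**Figure D2:**
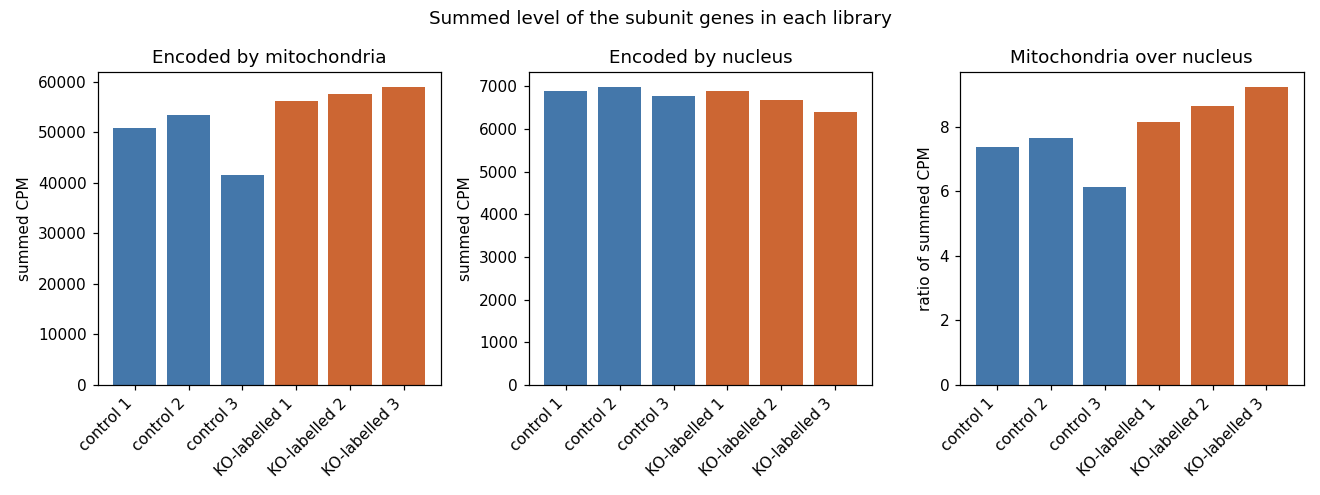
Bars give, for each of the 6 libraries, the summed CPM (main scaling) of the 13 mitochondria-encoded members, the summed CPM of the nuclear members and the ratio of the sums. The ratio runs from 6.14 to 7.66 in the control and from 8.15 to 9.24 in the KO-labelled libraries.

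Among the mitochondria-encoded subunits of complex I, *mt-Nd1* (chromosome M, 2751 to 3707, GRCm38), a core membrane subunit next to the coenzyme Q site, had 8231, 7928 and 6941 CPM in the control and 9645, 9907 and 9789 CPM in the KO-labelled group. The groups did not overlap, and the log2 fold change was 0.35 (SE 0.09, adjusted p = 0.00886). *mt-Nd4*, one of the proton-pumping subunits, had 2576, 2491 and 2010 CPM in the control and 2982, 2855 and 2921 CPM in the KO-labelled group. Its log2 fold change was 0.31 (SE 0.10, adjusted p = 0.0208). The other core membrane subunits gave log2 fold changes from 0.18 for *mt-Nd5* to 0.29 for *mt-Nd4l*, with *mt-Nd6* at 0.21, *mt-Nd3* at 0.24 and *mt-Nd2* at 0.26, and passed no threshold. With somatic scaling all 7 values turned negative, at -0.11 for *mt-Nd1* and -0.15 for *mt-Nd4*. Without control library 3 *mt-Nd4* lost its call (0.21, adjusted p = 0.0846), as it did without KO-labelled library 2 (0.33, adjusted p = 0.0524).

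In complex III, *mt-Cytb*, cytochrome b, had 14240, 15218 and 10973 CPM in the control and 15929, 15289 and 16016 CPM in the KO-labelled group. The groups did not overlap, but the control spread was wide and the test was not passed (log2 fold change 0.22, SE 0.11, adjusted p = 0.14). In complex IV the catalytic subunits were measured at very different levels. *mt-Co1*, which holds the site of oxygen reduction, had 7903, 9540 and 7801 CPM against 8916, 10336 and 10371 CPM, and these groups overlapped (log2 fold change 0.23, adjusted p = 0.1). *mt-Co2*, which takes the electron from cytochrome c, had 87.7, 78.3 and 68.7 CPM in the control and 89.8, 93.8 and 94.8 CPM in the KO-labelled group (log2 fold change 0.25, SE 0.09, adjusted p = 0.0445). *mt-Co3* had 70.3, 58.0 and 61.6 CPM against 79.9, 75.6 and 74.5 CPM (log2 fold change 0.28, SE 0.09, adjusted p = 0.0233). *mt-Co2* lost its call when control library 3 (0.16), KO-labelled library 2 (0.25) or KO-labelled library 3 (0.24) was left out, with adjusted p from 0.0764 to 0.186. *mt-Co3* lost its call without control library 2 or 3 or KO-labelled library 1 or 2 (0.26 to 0.29, adjusted p from 0.0515 to 0.0607). In complex V, *mt-Atp8* had 56.1, 50.8 and 56.5 CPM against 45.7, 61.0 and 51.5 CPM (log2 fold change -0.05, adjusted p = 0.77), the only mitochondria-encoded value below 0 with the main scaling. *mt-Atp6*, which forms the proton channel with the c ring, had 148, 103 and 109 CPM against 144, 134 and 138 CPM (log2 fold change 0.20, adjusted p = 0.19). The groups of both ATP synthase genes overlapped. Of the 13 mitochondria-encoded members, 7 had groups that did not overlap with the main scaling (53.8%, beside 45.5% of all genes and 50.5% of protein-coding genes).

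**Figure D3:**
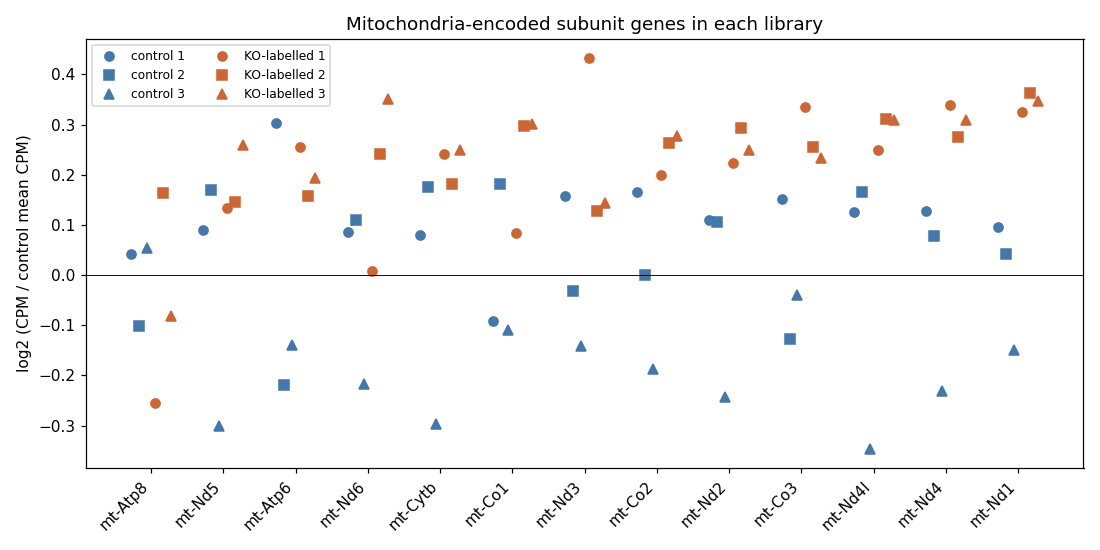
Each point is one library's CPM of a mitochondria-encoded member as the log2 of its ratio to the mean of the 3 control libraries (main scaling), genes ordered by fitted log2 fold change. Control library 3 (blue triangles) is the lowest of the control libraries in 10 of the 13 genes.

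Levels between these genes depend on how reads were counted, since the nuclear genome holds copies of mitochondrial DNA and the counting left out reads with several possible origins. Of 50-base windows along *mt-Co2*, 100% also occur in other annotated genes, mainly the nuclear pseudogene Gm28661. The share was 99.9% for *mt-Co3*, 99.5% for *mt-Atp6*, 98.8% for *mt-Nd4l* and 98.0% for *mt-Nd3*, and it was 0 for *mt-Nd1*, *mt-Nd6*, *mt-Cytb* and *mt-Atp8*. The 5 genes with nearly complete sharing had 14.2 to 199 RPKM (CPM per kb of gene length) in the control mean, and the 4 genes with none had 267 to 11781 RPKM. The other 4 genes, with 7.61 to 62.2% shared, had 1712 to 6163 RPKM, so levels did not fall steadily with sharing. Levels of mitochondria-encoded genes in the files thus leave out reads with several possible places, and no order of abundance was read from them. Of the 4 calls higher, 2 fell on genes with nearly complete sharing (*mt-Co2* and *mt-Co3*). Of the others, 1 fell on a gene with partial sharing (*mt-Nd4*) and 1 on a gene with none (*mt-Nd1*). *mt-Co2* still had 3024 to 4018 counts a library, and where those reads came from was not tested. *mt-Atp8* overlaps *mt-Atp6*, and *mt-Nd4l* overlaps *mt-Nd4*, on the same strand, so reads at the overlap cannot be assigned to one of them. The 9 nuclear pseudogenes themselves had 0.704 to 5.51 CPM. Log2 fold changes ran from 0.20 to 0.29 in the genes with nearly complete sharing, from 0.18 to 0.31 in the 4 genes with partial sharing and from -0.05 to 0.35 in those with none. Shown as examples are bases 301 to 350 of *mt-Co2* (chrM:7313-7362, plus strand), which occur unchanged in Gm28661, and the same bases of *mt-Nd1* (chrM:3051-3100, plus strand), which occur in no other annotated transcript. The sequences are from the GENCODE transcripts on GRCm38.
mt-Co2: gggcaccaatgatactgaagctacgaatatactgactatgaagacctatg
mt-Nd1: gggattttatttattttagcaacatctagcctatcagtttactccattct

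**Figure D4:**
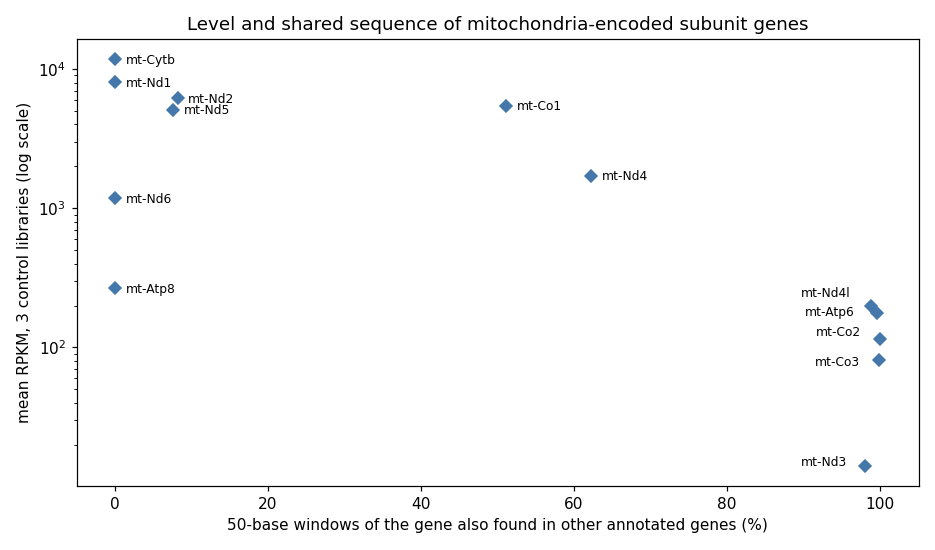
Mean RPKM in the 3 control libraries (y axis, log scale) against the percentage of 50-base windows that other annotated genes share (x axis), for the 13 mitochondria-encoded members. The 5 genes at the right edge lie at 199 RPKM or below, and the 4 genes with partial sharing at 1712 to 6163 RPKM.

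Nuclear genes of complex I moved in both directions, with 4 of 37 called higher and 6 called lower and a median log2 fold change of -0.05. The share called was 27.0%, beside 33.1% of all genes. Of the calls, 4, all lower, fell on the 7 core subunits that carry the electrons (57.1%, beside 16.7% of all genes called lower). *Ndufv2*, an iron-sulfur subunit of the NADH-oxidizing module, had 100.1, 106 and 93.4 CPM in the control and 79.6, 75.1 and 66.0 CPM in the KO-labelled group (log2 fold change -0.44, SE 0.09, adjusted p = 0.000926). *Ndufs7*, which holds the last iron-sulfur cluster before coenzyme Q, had 153, 163 and 143 CPM against 119, 120 and 115 CPM (log2 fold change -0.37, SE 0.08, adjusted p = 0.00126). *Ndufs1*, the largest core subunit, had 99.1, 98.6 and 91.7 CPM against 82.8, 76.7 and 78.4 CPM (log2 fold change -0.28, SE 0.08, adjusted p = 0.0101). None of these groups overlapped. *Ndufs8*, also a core iron-sulfur subunit, fell by 0.27 (adjusted p = 0.0172), and *Ndufv1* and *Ndufs3* passed no threshold at -0.12 and 0.02. Core subunits were grouped after their values had been seen. The other 30 nuclear genes with complex I symbols were taken as accessory subunits, which surround the core. *Ndufa4* and *Ndufa4l2* are among them by symbol only. Of the 30, 4 were called higher and 2 lower (20.0% called).

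The higher accessory genes of complex I included *Ndufv3*, a small subunit of the NADH module, with 74.2, 73.4 and 67.5 CPM in the control and 95.8, 98.6 and 94.0 CPM in the KO-labelled group (log2 fold change 0.42, SE 0.08, adjusted p = 0.000499). *Ndufb11*, a subunit of the membrane arm, had 32.7, 32.4 and 32.0 CPM against 41.6, 40.4 and 39.2 CPM (log2 fold change 0.32, SE 0.09, adjusted p = 0.0103). *Ndufb3*, also of the membrane arm, had 30.8, 28.2 and 34.4 CPM against 39.4, 40.8 and 34.8 CPM (log2 fold change 0.30, SE 0.10, adjusted p = 0.0353). These groups did not overlap, although control library 3 and KO-labelled library 3 of *Ndufb3* were close. With somatic scaling the values of the 3 genes became -0.03, -0.14 and -0.16. The remaining calls, named here after their values were seen, were *Ndufa3* (0.32), *Ndufa9* (-0.35) and *Ndufa2* (-0.28), with *Ndufa3* at -0.13 under somatic scaling. *Ndufs1* lost its call without control library 1 or 2 or KO-labelled library 2 (-0.26 to -0.23), *Ndufb3* without control library 1 or 2 or KO-labelled library 1 or 2 (0.26 to 0.29), and *Ndufa9* without control library 2 (-0.24, adjusted p = 0.112). *Ndufs8* lost it without library 2 or 3 of either group (-0.24 to -0.21), *Ndufa2* without control library 1 or 2 or KO-labelled library 1 or 3 (-0.28 to -0.21), and *Ndufa3* without control library 1 or 2 or KO-labelled library 2 or 3 (0.24 to 0.30).

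Few genes of complex II and complex III were called. None of the 4 complex II genes was called by edgeR, and 0 of them had an unadjusted p under 0.05. *Sdha*, the flavoprotein that oxidizes succinate, had a log2 fold change of -0.06, and the iron-sulfur subunit *Sdhb* and the membrane anchors *Sdhc* and *Sdhd* had -0.18, 0.10 and -0.01. In complex III, 1 of 8 nuclear genes was called (12.5%, beside 33.1% of all genes). *Uqcrc2*, a core protein of the matrix side, had 104, 111 and 100.1 CPM in the control and 92.0, 86.0 and 71.7 CPM in the KO-labelled group (log2 fold change -0.34, SE 0.09, adjusted p = 0.00943), with groups that did not overlap. The call was lost without control library 2 (-0.26, adjusted p = 0.0869) or KO-labelled library 3 (-0.23, adjusted p = 0.0603). Of its windows 17.6% are shared with the overlapping gene Pdzd9. Its partner *Uqcrc1* had -0.14 and the Rieske protein *Uqcrfs1* had -0.02, neither past the threshold.

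Complex IV held the largest falls of all members. All 3 testis isoforms were called lower. *Cox8c* (chromosome 12, 102899316 to 102900526, plus strand), the testis form of the small subunit VIII, had 2.97, 1.93 and 2.88 CPM in the control and 1.07, 1.26 and 0.786 CPM in the KO-labelled group. The log2 fold change was -1.31 (SE 0.31, adjusted p = 0.00318). *Cox7b2* (chromosome 5, 71442824 to 71548205, minus strand), the testis form of subunit VIIb, had 9.24, 9.01 and 9.70 CPM against 3.66, 3.53 and 4.58 CPM (log2 fold change -1.25, SE 0.17, adjusted p = 3.32e-05). *Cox6b2* (chromosome 7, 4751792 to 4753094, minus strand), the testis form of subunit VIb, had 6.16, 6.85 and 8.0 CPM against 3.19, 4.16 and 4.56 CPM (log2 fold change -0.82, SE 0.19, adjusted p = 0.0035). In each of the 3 genes every KO-labelled library lay below every control library. These are low counts, and without any one library the log2 fold changes ran from -1.47 to -1.14 for *Cox8c*, from -1.37 to -1.17 for *Cox7b2* and from -0.92 to -0.68 for *Cox6b2*, with all calls kept. The summed spermatocyte markers moved the same way, as given above, and their part in these falls was not tested.

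None of the general partners of the testis isoforms was called. *Cox8a* had a log2 fold change of 0.20 (95% interval 0.01 to 0.38, adjusted p = 0.098) and *Cox7b* of 0.27 (0.01 to 0.52, adjusted p = 0.097), which became -0.25 and -0.19 with somatic scaling. *Cox6b1* had -0.11 (-0.36 to 0.14, adjusted p = 0.51). As a share of the pair in RPKM, *Cox7b2* made up 54.1%, 56.9% and 56.2% in the control and 27.6%, 27.6% and 36.6% in the KO-labelled libraries. *Cox6b2* made up 9.50%, 12.1% and 11.2% of its pair with *Cox6b1* in the control and 6.51%, 6.39% and 8.0% in the KO-labelled libraries. *Cox8c* made up 2.86% ± 0.475 (SD, n = 3) of its pair with *Cox8a* in the control and 1.02% ± 0.18 (SD, n = 3) in the KO-labelled libraries. No share overlapped between groups for these 3 pairs. Since a share is taken within a library, it does not depend on the scaling. It does depend on the counted gene lengths, 542 bases for *Cox7b2* and 1214 for *Cox7b*. In counts, *Cox7b2* had 321, 383 and 427 in the control libraries against 611, 650 and 745 for *Cox7b*. No order of abundance within a pair was read from the shares.

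The 4 tested isoforms of other tissues had log2 fold changes of 0.07 to 0.35 and no call, and all 4 values were below 0 with somatic scaling. *Cox7a1*, the form of subunit VIIa in heart and skeletal muscle, had 41.4, 46.2 and 40.2 CPM in the control and 48.5, 44.0 and 52.5 CPM in the KO-labelled group (log2 fold change 0.18, adjusted p = 0.16, and -0.27 with somatic scaling). Its general partner *Cox7a2* was called lower, with 165, 178 and 142 CPM against 115, 123 and 108 CPM (log2 fold change -0.49, SE 0.09, adjusted p = 0.000475). The share of *Cox7a1* was thereby 30.7%, 31.4% and 33.4% in the control and 42.7%, 38.6% and 46.2% in the KO-labelled libraries. *Cox4i2* held 3.10% ± 0.275 of its pair with *Cox4i1* in the control and 3.79% ± 1.24 (SD, n = 3) in the KO-labelled libraries, and *Ndufa4l2* held 16.4% ± 3.58 of its pair with *Ndufa4* and 15.5% ± 2.47 (SD, n = 3), both with overlapping groups. *Ndufa4l2*, *Ndufa4* and *Cox4i2* had log2 fold changes of 0.07, 0.19 and 0.09. The muscle forms *Cox6a2* (0.22 ± 0.0947 CPM in the control, SD, n = 3) and *Cox8b* (0.186 ± 0.0867 CPM) were near the detection limit, and *Cox8b* was too low to be tested.

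**Figure D5:**
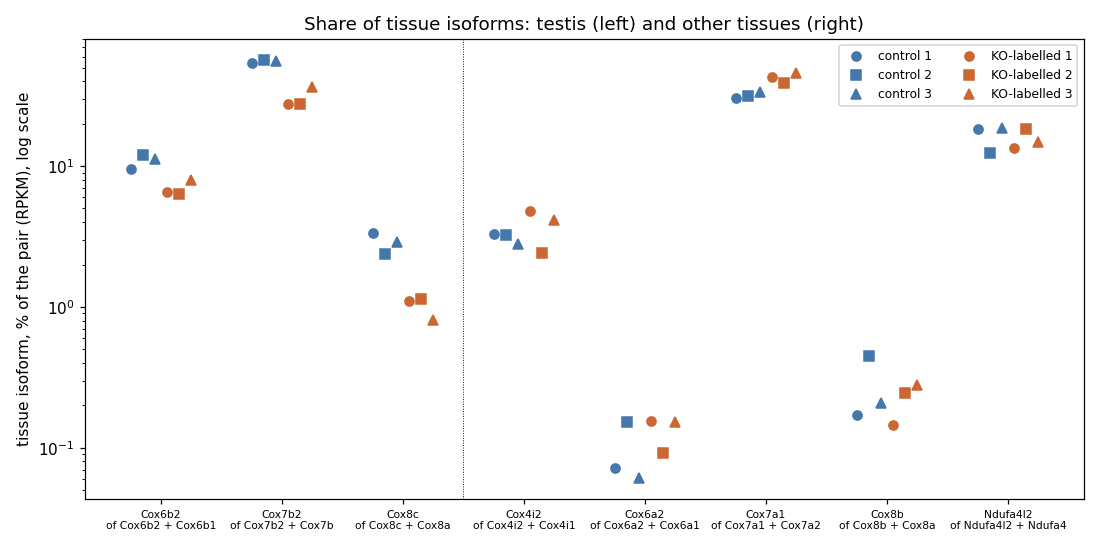
Tissue isoform as a percentage of the RPKM of its pair (y axis, log scale) in each library, with the 3 testis isoforms left of the dotted line and 5 isoforms of other tissues right of it. The KO-labelled libraries lie below the control libraries for all 3 testis isoforms and above them for Cox7a1.

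Promoter sequence was set beside the pairs because the testis isoforms moved together. RefSeq windows (GRCm38.p6, 250 bases before to 50 after the start) were found for 69 of the 85 nuclear members (68 distinct windows, since both identifiers of *Atp5o* have the same one), and *Cox8c* was among those without one. The stretches below run 5′ to 3′ up to the start, cut where the count table's annotation already draws the gene, and CG dinucleotides are in capitals. *Cox6b2* lies at chr7:4753095-4753244 on the minus strand and *Cox7b2* at chr5:71548206-71548355 on the minus strand. *Cox6b1* lies at chr7:30626152-30626264 on the minus strand, *Cox7b* at chrX:106015550-106015699 on the plus strand and *Cox8a* at chr19:7217617-7217766 on the minus strand.
Cox6b2: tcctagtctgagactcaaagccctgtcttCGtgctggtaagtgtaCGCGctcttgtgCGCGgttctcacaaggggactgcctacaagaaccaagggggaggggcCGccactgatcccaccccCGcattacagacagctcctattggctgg
Cox7b2: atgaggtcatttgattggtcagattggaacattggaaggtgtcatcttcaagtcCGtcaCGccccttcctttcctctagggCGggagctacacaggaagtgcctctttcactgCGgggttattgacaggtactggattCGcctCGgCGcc
Cox6b1: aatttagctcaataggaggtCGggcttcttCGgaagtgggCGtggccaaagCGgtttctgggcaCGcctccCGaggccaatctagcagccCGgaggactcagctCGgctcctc
Cox7b: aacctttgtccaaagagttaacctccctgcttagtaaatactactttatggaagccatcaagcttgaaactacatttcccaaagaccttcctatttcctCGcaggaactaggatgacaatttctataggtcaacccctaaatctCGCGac
Cox8a: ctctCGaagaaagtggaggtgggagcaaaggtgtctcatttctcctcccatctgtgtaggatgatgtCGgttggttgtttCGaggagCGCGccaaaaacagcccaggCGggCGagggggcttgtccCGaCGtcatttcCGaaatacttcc

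Both testis isoforms held 7 CG in 150 bases, against 3 in *Cox7b*, 10 in *Cox8a* and 8 in the 113 bases of *Cox6b1*, so the count did not set testis and general forms apart. Over the whole windows the median ratio of observed to expected CG was 0.801 in the nuclear members and 0.384 in all 32851 windows, which cover genes of every kind. The 8-letter motif of NRF1, GCGCATGC or its reverse complement, a known activator site of respiratory genes, occurred in 10 of the 68 windows (14.7%) and in 2.71% of all windows. The ETS motif bound by GABP, CCGGAAGT, occurred in 5 (7.35%) against 3.89%, and the YY1 motif, AAGATGGC, in 9 (13.2%) against 2.75%, each on either strand and with no overlap in letters between the 3 motifs. All windows were not matched to the members for CG, which the NRF1 and ETS motifs hold. These shares therefore cannot tell a motif from CG content, and no enrichment was tested. Of 11 members called lower with a window, 1 held the NRF1 motif (*Atp5k*), 0 the ETS motif and 3 the YY1 motif (*Ndufa9*, *Ndufs7* and *Atp5f1*, named after this was seen). Of the 5 called higher, *Ndufa3* held the YY1 motif.

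The other calls of complex IV were also lower. *Cox7c*, a small subunit of the membrane part, had 35.4, 31.5 and 33.9 CPM against 26.9, 22.9 and 24.8 CPM (log2 fold change -0.44, adjusted p = 0.00331), and 22.1% of its windows are shared with other genes. *Cox4i1*, the general form of regulatory subunit IV, had 155, 158 and 161 CPM against 143, 136 and 130 CPM (log2 fold change -0.21, SE 0.07, adjusted p = 0.0363). The groups of both genes did not overlap. *Cox4i1* kept its call only without KO-labelled library 1, and leaving out any other library gave -0.23 to -0.17 with adjusted p from 0.0956 to 0.153. No nuclear gene of complex IV was called higher, with 17 tested and 6 lower. The share called was 35.3%, beside 33.1% of all genes, and the 6 include the 3 testis isoforms. *Cox6a1*, at 351 RPKM in the control mean, was the highest nuclear member, followed by *Atp5c1* at 314 and *Cox8a* at 192 RPKM, and none of the 3 was called. *Cox6a2* at 0.324, *Ndufb2* at 2.49 and *Cox4i2* at 3.26 RPKM were the lowest of those tested, and they were not called either.

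In complex V, 4 of 17 tested nuclear genes were called lower and 1 higher (29.4% called, beside 33.1% of all genes). *Atp5f1*, subunit b of the stator that holds the catalytic head still, had 146, 146 and 142 CPM in the control and 99.3, 93.2 and 97.4 CPM in the KO-labelled group. The log2 fold change was -0.58 (SE 0.07, adjusted p = 1.39e-05), the smallest adjusted p of all members. *Atp5mpl*, a small proteolipid of the membrane part, had 89.8, 87.6 and 86.5 CPM against 55.6, 62.1 and 56.6 CPM (log2 fold change -0.60, SE 0.08, adjusted p = 2.65e-05). *Atp5e*, the epsilon subunit of the central stalk, had 16.1, 14.3 and 18.1 CPM against 8.99, 12.2 and 11.4 CPM (log2 fold change -0.57, SE 0.15, adjusted p = 0.00632). In all 3 genes the KO-labelled libraries lay below the control libraries, and each call was kept without any one library. *Atp5k*, subunit e, which takes part in joining ATP synthases into dimers, fell by 0.27 (adjusted p = 0.0249), a call that was lost without control library 1 or 2 or KO-labelled library 2 (-0.26 to -0.21).

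One of the 3 genes for the identical c subunit of the membrane ring was called higher. *Atp5g3* had 27.7, 25.8 and 33.9 CPM in the control and 35.4, 40.3 and 35.7 CPM in the KO-labelled group (log2 fold change 0.35, SE 0.11, adjusted p = 0.0231). The value was -0.10 with somatic scaling, and the call was lost without control library 1 or 2 or KO-labelled library 2 (0.29 to 0.31, adjusted p from 0.073 to 0.109). *Atp5g1* and *Atp5g2* had 0.11 and -0.21 and were not called, and 38.3% of the windows of *Atp5g2* are shared with other genes. The catalytic subunits alpha and beta, *Atp5a1* and *Atp5b*, had 0.15 and 0.04 and were not called. The second identifier of *Atp5o* had 0 counts in all 6 libraries, while the first had 60.0 to 63.6 CPM in the control and 58.7 to 63.2 CPM in the KO-labelled group.

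Sums per complex are given with the main scaling only, and overlap between groups depends on it. The nuclear genes of complex IV had 1601 ± 55.9 CPM in the control and 1476 ± 68.1 CPM in the KO-labelled group (SD, n = 3), and those of complex III 565 ± 7.80 and 516 ± 17.8 CPM, both without overlap between groups and without a test. Complex I gave 1867 ± 13.4 and 1806 ± 71.0 CPM, complex II 439 ± 18.5 and 434 ± 21.5 CPM and complex V 2409 ± 42.0 and 2422 ± 86.9 CPM, all with overlapping groups.

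Genes outside the symbol rule were described from lists made from general knowledge. Most serve the complexes without being subunits. *Cyc1* of complex III and *Ndufab1* of complex I are subunits that the rule missed (log2 fold change -0.25 each, not called). Among the carriers beside the chain, 2 testis forms were called lower. *Cycs*, somatic cytochrome c, had a log2 fold change of 0.71 (SE 0.08, adjusted p = 5.82e-06), and *Cyct*, testis cytochrome c, had -1.07 (SE 0.16, adjusted p = 5.76e-05). *Slc25a31*, the testis ADP/ATP carrier, had -1.16 (SE 0.12, adjusted p = 1.9e-06), and *Etfdh*, which feeds electrons of fatty acid oxidation to coenzyme Q, had 0.37 (SE 0.09, adjusted p = 0.00343). Of the 10 genes in that list, which includes *Cyc1* and *Ndufab1*, 4 were called higher and 3 lower (70.0% called, beside 33.1% of all genes). Assembly factors of complex I were called lower in 6 of 17 tested genes and higher in 0, with the smallest adjusted p for *Ecsit* at -1.04 and *Ndufaf8* at -0.74. For complex III 2 of 6 were lower, *Ttc19* at -0.78 and *Uqcc2* at -0.52. For complex IV 2 of 21 were higher (*Cox15*, which makes heme A, at 0.49 and *Coa5* at 0.29) and 2 lower (*Cox11* at -0.63 and *Cox19* at -0.45). For complex V *Atpaf1* had 0.98 and *Atpaf2* had -0.56 of 5 genes. None of 4 complex II factors was called by edgeR (0 with an unadjusted p under 0.05). The shares called were 35.3%, 33.3%, 19.0% and 40.0% for the factors of complexes I, III, IV and V. Of all genes 33.1% were called, 16.4% as higher and 16.7% as lower.

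Genes that replicate, transcribe, process and translate the mitochondrial genome were called in 25.0%, 21.1% and 23.4% of 3 lists, below the 33.1% of all genes, and their lower calls are to be read beside the 16.7% of all genes called lower. Of 16 genes of mitochondrial DNA replication and transcription, 4 were lower and 0 higher, with *Polrmt*, the mitochondrial RNA polymerase, at -0.56 (SE 0.12, adjusted p = 0.00159) and *Mgme1* at -0.50. Of 19 tested genes of mitochondrial RNA processing and decay, 4 were lower and 0 higher, among them *Angel2* at -0.47 and *Tbrg4* at -0.48. The mitochondrial ribosome had 15 of 77 tested genes lower and 3 higher, with *Mrpl35* at -0.65 and *Mrps16* at -0.63, and *Mrpl36* at 0.62 and *Mrps15* at 0.25. Among 12 tested regulators of mitochondrial biogenesis, *Gabpb2* at -0.32 and *Gabpa* at -0.33 were among 4 lower genes and *Ppargc1a* at 0.44 was the 1 higher. The tricarboxylic acid cycle and pyruvate entry had 4 of 20 higher and 2 lower. Of the higher genes, *Suclg1* at 0.67 and *Dlst* at 0.41 had the smallest adjusted p. The lower ones were the testis pyruvate dehydrogenase subunit *Pdha2* at -1.08 and *Pcx* at -0.31. The regulators were called in 41.7% and the tricarboxylic acid list in 30.0%, beside 33.1% of all genes. The median log2 fold changes of these lists ran from -0.39 for complex III assembly factors to 0.15 for complex II assembly factors, beside -0.02 for all genes. All values of these lists are with the main scaling only. Somatic scaling moved the median of all genes tested to -0.48, so higher calls in these lists may not hold under it.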

How the data were processed

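Libraries of whole testes (3 a group, postnatal day 12) used random and poly(T) priming with depletion of unwanted transcripts. Per the labels and the file header, the authors trimmed reads with cutadapt, aligned them with HISAT2 (GRCm38.p5) and deposited raw counts per gene from featureCounts 1.6.4 over GENCODE M18, on 1 strand, leaving out reads that map to several places. 0 columns were left unused. Names came from GENCODE M21 (67 identifiers unnamed).

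The test was edgeR 4.0.16's robust quasi-likelihood F test on the counts (filterByExpr, TMM) under R 4.3.3, checked on simulated counts. CPM are scaled by TMM, RPKM are CPM per kb of the counted length, and SE is the log2 fold change divided by the square root of F. Labels do not say that libraries are separate animals (the study calls them biological replicates). P-values measure the spread between these libraries. Members, lists, isoform pairs and tests were chosen with earlier results of these data known. Genes named are the targeted gene and its homolog, all mitochondria-encoded members, per complex the 3 smallest adjusted p in each direction, isoform pairs, untested members, the 3 highest and 3 lowest nuclear RPKM, and 2 per direction of each further list. Others were chosen after their values were seen, and 1 member is not reported here. Shared windows and promoter motifs were counted in Python 3.11.15 from GENCODE transcripts and RefSeq windows. Replicate numbers did not pair libraries (correlations of deviations -0.0014, -0.0126 and 0.0139). Alternatives were DESeq2 1.42.0, limma-voom 3.58.1, other scalings, filters and gene sets, a replicate block, a 1.5-fold minimum, and each library left out.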

Additional observations from a re-analysis of the deposited data

How the results depend on the processing

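Of the 26 called members, 10 kept direction and call under every alternative other than the 1.5-fold minimum (the 3 testis isoforms, *Atp5f1*, *Atp5mpl*, *Atp5e*, *Cox7a2*, *Cox7c*, *Ndufv2* and *Ndufs7*), and *mt-Nd1*, *Ndufv3* and *Ndufb11* did so under all but that minimum and somatic scaling. With the minimum, 4 of the 26 stayed called (*Cox8c*, *Cox7b2*, *Cox6b2* and *Atp5mpl*). Depth limits the low isoforms, and testis *Cox8c* has under 3 CPM in every library.

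Factors from somatic cell markers gave 0 nuclear members higher and 66 lower, 0 mitochondria-encoded members higher and 1 lower, and medians of -0.53 (nuclear) and -0.22 (mitochondria-encoded). Under them the log2 fold change was -0.28 for *mt-Nd5*, -0.24 for *mt-Nd6*, -0.22 for *mt-Nd3*, -0.20 for *mt-Nd2*, -0.17 for *mt-Nd4l*, -0.15 for *mt-Nd4*, -0.11 for *mt-Nd1*, -0.24 for *mt-Cytb*, -0.22 for *mt-Co1*, -0.21 for *mt-Co2*, -0.18 for *mt-Co3* and -0.25 for *mt-Atp6*. It was -0.37 for *Ndufa4l2*, -0.27 for *Ndufa4*, -0.16 for *Ndufb3*, -0.13 for *Ndufa3*, -0.14 for *Ndufb11*, -0.0336 for *Ndufv3*, -0.37 for *Cox4i2*, -0.27 for *Cox7a1*, -0.25 for *Cox8a*, -0.19 for *Cox7b*, -0.11 for *Cox6a2*, -0.38 for *Atp5c1* and -0.10 for *Atp5g3*. These factors move every gene down together.

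With protein-coding genes only, 3 nuclear members were higher and the nuclear median was -0.11. With no filter on low counts the nuclear median was -0.0495 and 9 mitochondria-encoded members were higher. limma-voom called 7 of these higher. A minimum of 1.5-fold left 0 nuclear members higher, 4 lower and 0 mitochondria-encoded higher. The cause of these shifts was not tested, other than that the minimum removes smaller changes. DESeq2 called 5 nuclear members higher and 15 lower.

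Leaving out 1 library gave 2 to 7 nuclear members higher and 10 to 16 lower, 1 to 7 mitochondria-encoded members higher and 0 lower, and medians of -0.0972 to -0.0505 (nuclear) and 0.15 to 0.33 (mitochondria-encoded). The lowest mitochondria-encoded count, 1, came without control library 3 or KO-labelled library 2, and the lowest median without control library 3. The lowest nuclear counts were 2 higher without control library 1 or 2, and 10 lower without control library 2. Values changed sign for *mt-Atp8* (0.0569 without KO-labelled library 1), *Ndufa4l2* (-0.0812 without control library 2 and -0.006 without KO-labelled library 2, up to 0.20 otherwise) and *Cox4i2* (-0.16 without KO-labelled library 1, up to 0.36 otherwise), none of them called.

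The replicate number as a block gave 6 nuclear members higher and 17 lower and 5 mitochondria-encoded members higher. The numbers pair nothing in the labels. A fit without robust estimation was added after seeing the data, in which edgeR called 4 nuclear members higher, 17 lower and 3 mitochondria-encoded members higher.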
